A study of Danio rerio with 4 samples.

Results

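The genes described here encode bone morphogenetic proteins (BMPs), their receptors and their extracellular antagonists. They were chosen by symbol: the ligand genes bmp2a, bmp2b, bmp4, bmp6, bmp7a and bmp10, the receptor genes bmpr2a and acvrl1, and the antagonist genes grem2b and chrd. All probes that the platform annotation assigned to one of these symbols, older aliases included, were taken. This gave 11 probes for 8 of the 10 genes, out of 14434 genes named on the array. No probe was named bmp10, which encodes a cardiac ligand of the receptor Alk1, or grem2b, which encodes a Gremlin family antagonist that acts in zebrafish heart development, so both are not analysed here.

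RNA came from whole hearts that were dissected by hand from zebrafish at 72 hours post fertilization (hpf) and pooled. The 2 wild-type (WT) samples were compared with 2 samples of ccm2 m201 mutants, embryos mutant for the scaffold protein Ccm2 of the cerebral cavernous malformation (CCM) complex, with the aim of finding cardiac genes that depend on Ccm2. Each pool was hybridised to 1 single-colour Agilent array, and the 4 arrays shared 1 slide. Nothing in the labels says that the pools of a group stem from separate clutches. P-values thus speak only of these samples, and 2 arrays per group limit the precision of every value. In the limma fits each probe's variance was also drawn toward a value estimated from all tested probes. The standard errors (SE), intervals and p-values below are therefore not the spread of 1 probe's arrays alone, and an SE can exceed that spread. The free-text description of both mutant samples also names Bmp2b overexpression, whereas their titles, source names and genotypes name only the mutation. The labels do not settle which holds, and WT samples carry no such note.

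BMPs are secreted ligands of the TGF-beta superfamily. They bind complexes of type I and type II receptor kinases, which phosphorylate Smad proteins that then act on target genes, while antagonists such as Chordin and Gremlin bind the ligands outside the cell. In the developing zebrafish heart, BMP signals take part in patterning the atrioventricular canal and the valves, and in endothelium the receptor Alk1 transmits signals that shape blood vessels.

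Levels below are log2 processed signals, scaled so that the 75th percentile was the same on each array. They can be compared between arrays for 1 probe but not between probes. Summed signals of a marker list weight bright probes most. They serve only to compare arrays and do not measure amounts of cells. Between 54.0% and 55.9% of the 43803 features were well above background on an array, and none was saturated. The ccm2 transcript differed by -0.58 ± 0.22 (SE) on the log2 scale, which did not pass (limma adjusted p = 0.168). Cardiomyocyte markers were well above background in both groups, with actc1a, a cardiac actin gene, between 15.32 and 15.80 on the 4 arrays and nppa, a natriuretic peptide gene, between 15.25 and 15.48. The 6 tested markers of liver, yolk and gut set the WT arrays apart, since their summed signal was 5326 on one and 32722 on the other. These sums came mostly from tfa and fabp10a, and not all 6 markers were higher on the same WT array.

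The ligand genes bmp2a, bmp2b and bmp6 were higher in ccm2 mutant hearts, by 2.49-fold to 3.95-fold. No member was called lower, as 9.02% of all tested genes were. The other 5 measured members, bmp4, bmp7a, bmpr2a, acvrl1 and chrd, had estimates above 0 that did not pass the test. The test was limma on all 26872 probes above a signal minimum, with Benjamini-Hochberg adjustment and a threshold of 0.05, and each gene was read from its brightest probe. All 8 measured members passed the signal minimum. The 3 calls among 8 members stand against 17.1% of 11536 tested genes called in either direction and 8.09% called higher, so that changes are common in these hearts. The median log2 difference was 0.60 over the members and -0.04 over all tested genes. Estimates lay above 0 in 8 of 8 members and in 47.6% of all tested genes. In 7 of the 8 members both mutant arrays lay above both WT arrays, which also held for 32.6% of tested genes.

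**Figure D1:**
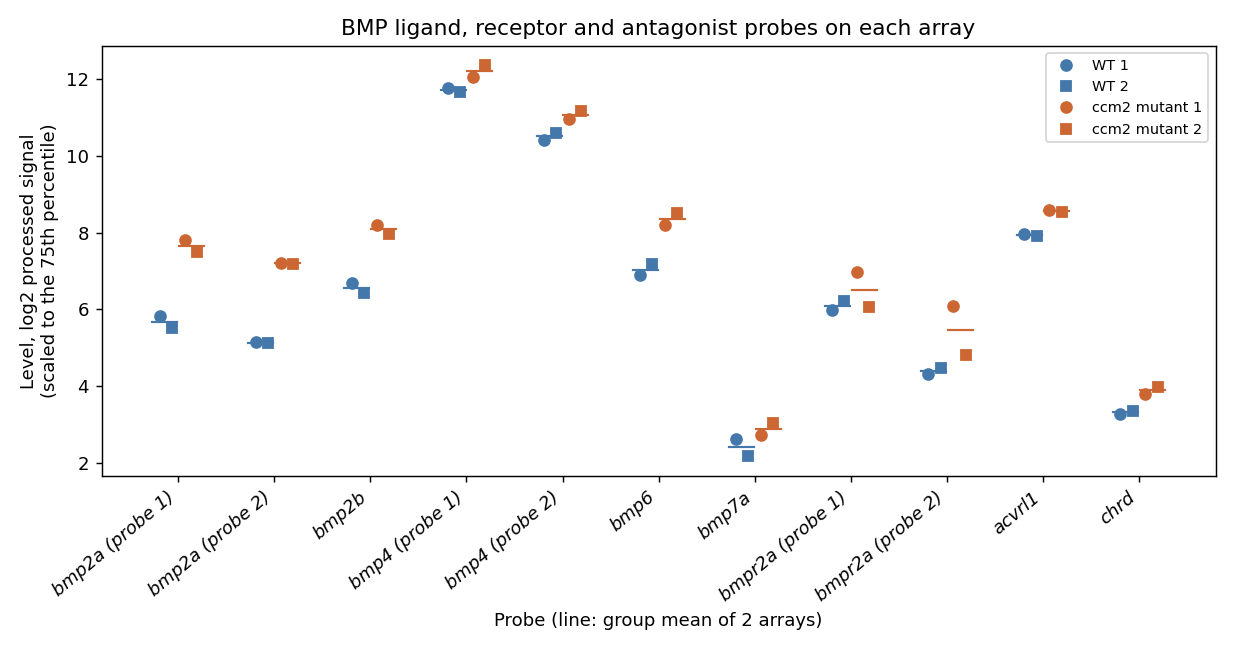
Level of each of the 11 member probes on each array, as log2 processed signal scaled to the 75th percentile (vertical axis). Blue symbols are the 2 WT arrays, orange symbols the 2 ccm2 mutant arrays, and short lines the group means; both bmp2a probes, bmp2b and bmp6 show mutant arrays at least 1.01 above the higher WT array, whereas the first bmpr2a probe overlaps between groups.

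Among the ligands, bmp2a had the largest difference of the members. It is one of a pair of zebrafish genes related to mammalian BMP2. Its brighter probe, A_15_P101832, lay at 5.81 and 5.51 on the WT arrays and at 7.80 and 7.49 on the mutant arrays. Both mutant arrays were thus high and both WT arrays low, with a gap of 1.68 between the nearest arrays of the groups. The log2 difference was 1.98 ± 0.22 (SE; 95% confidence interval 1.36 to 2.61; limma adjusted p = 0.0175), a 3.95-fold rise with an interval of 2.56-fold to 6.09-fold. The second probe, A_15_P139956, lay at 5.14 and 5.11 on the WT arrays and at 7.21 and 7.19 on the mutant arrays. It gave nearly the same rise, a log2 difference of 2.07 ± 0.17 (SE; limma adjusted p = 0.0104). Of the 11536 tested genes, 440 (3.81%) had a larger rise than the brighter probe. With normexp background correction of the raw signals the log2 difference was 1.31 (limma adjusted p = 0.00533). Normexp was run with an offset of 50, which shrinks differences of dim probes.

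The gene bmp2b, which in zebrafish is needed for ventral fates in the early embryo and is the ligand named in the description of the mutant samples, also rose. Its single probe, A_15_P171526, lay at 6.69 and 6.44 on the WT arrays and at 8.19 and 7.97 on the mutant arrays, without overlap between the groups. Mutants exceeded WT by 1.52 ± 0.20 on the log2 scale (SE; interval 0.95 to 2.09; limma adjusted p = 0.0237), a 2.87-fold rise with an interval of 1.93-fold to 4.25-fold. The mutant arrays lay 0.22 apart and the WT arrays 0.25 apart, so the difference exceeded the spread within either group. A larger rise was measured for 720 genes (6.24%), bmp2a among them. The files do not give the position of the probe in the transcript, so RNA from the bmp2b locus and RNA from an added source cannot be told apart.

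The third rise was in bmp6, which encodes a ligand that in mammals acts in iron balance. Its probe, A_15_P110051, lay at 6.89 and 7.19 on the WT arrays and at 8.19 and 8.51 on the mutant arrays, again without overlap. This gave a log2 difference of 1.32 ± 0.23 (SE; interval 0.69 to 1.95; limma adjusted p = 0.0365), a 2.49-fold rise. It did not pass without the signal minimum, which raised the number of tested probes to 43603 (adjusted p = 0.0716).

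No ligand was called once 1 array was left out, in fits that called few genes of any kind. Of all tested genes, limma called 4.82% without WT replicate 1 and 2.05% without WT replicate 2. It called 0 without mutant replicate 1 and 0 without mutant replicate 2, where 8394 and 9050 probes had an unadjusted p under 0.05. The adjusted p of bmp2a was 0.0630 without WT replicate 1, 0.0843 without WT replicate 2, 0.0733 without mutant replicate 1 and 0.0615 without mutant replicate 2. For bmp2b the same values were 0.0846, 0.114, 0.0863 and 0.0693, and for bmp6 they were 0.156, 0.115, 0.0875 and 0.0979. Each of these fits had 1 array in 1 of its groups, so its p-values say little about single members. The log2 differences themselves stayed between 1.83 and 2.13 for bmp2a, between 1.39 and 1.65 for bmp2b and between 1.16 and 1.48 for bmp6.

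The remaining ligands had smaller differences. The gene bmp4, which is expressed in the atrioventricular myocardium of zebrafish, lay at 11.77 and 11.66 on the WT arrays and at 12.06 and 12.36 on the mutant arrays with its brighter probe, A_15_P115131. The mutant arrays were the higher ones, but the gap between the groups was 0.29 and the mutant arrays themselves lay 0.30 apart. The estimate was 0.50 ± 0.20 (SE; interval -0.06 to 1.06; limma adjusted p = 0.180). The second bmp4 probe, A_15_P130716, lay at 10.41 and 10.61 on the WT arrays and at 10.96 and 11.18 on the mutant arrays, with a log2 difference of 0.56 ± 0.20 (SE; limma adjusted p = 0.140). The brighter probe passed only with normexp background correction, at a log2 difference of 0.55 (limma adjusted p = 0.0328).

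The gene bmp7a, whose product pairs with Bmp2b in the early zebrafish embryo, had a probe close to background. The probe, A_15_P163926, lay at 2.62 and 2.17 on the WT arrays and at 2.72 and 3.02 on the mutant arrays. It was well above background on 1 of the 4 arrays, mutant replicate 2, and not well above background on either WT array, so no fold is given. Exchanging the header counts of the 2 mutant arrays, whose header blocks carry exchanged identifiers, left this at 1 mutant array. The raw median signals were 28 and 28 on the WT arrays and 31 and 31 on the mutant arrays, below the raw median of all features, which was 34.5 to 35. The fitted log2 difference of 0.47 ± 0.25 (SE) did not pass (limma adjusted p = 0.285), and it was -0.11 with normexp background correction.

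**Figure D2:**
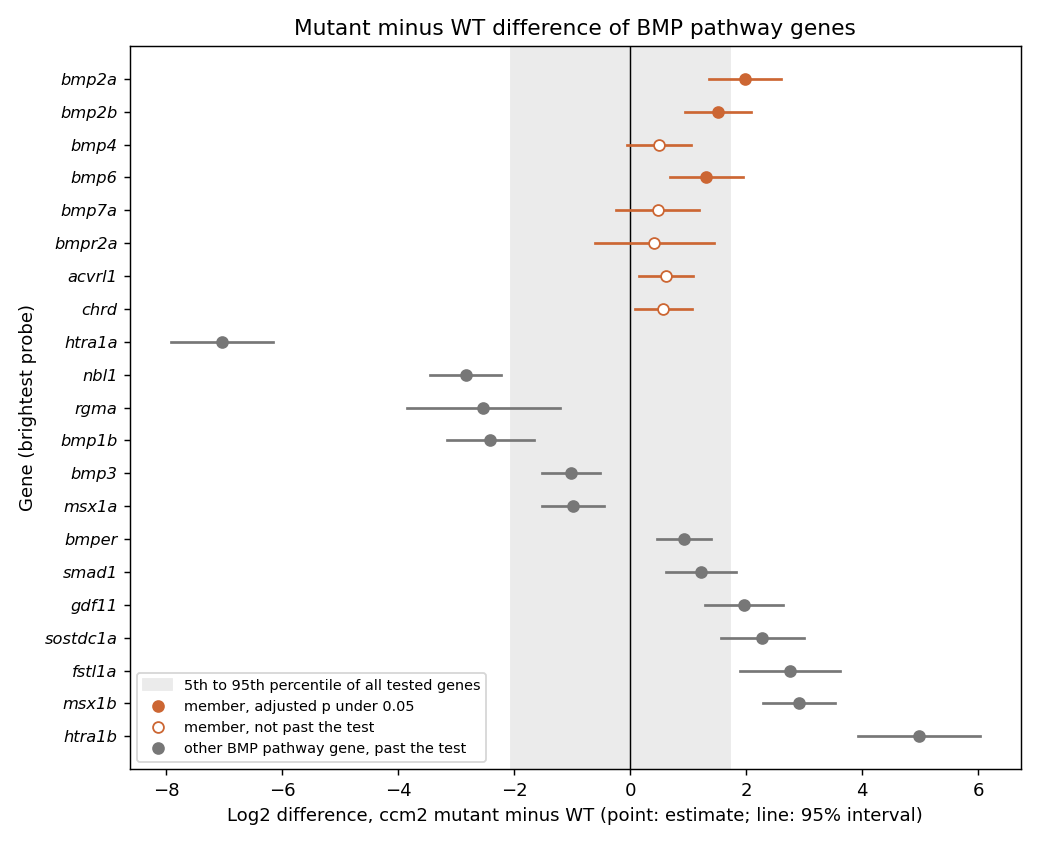
Log2 difference of ccm2 mutant minus WT (horizontal axis) for the 8 measured members in orange and the 13 other BMP pathway genes that passed the test in grey, each with its 95% confidence interval. Filled orange points are the 3 members that passed (bmp2a, bmp2b and bmp6), open points the 5 that did not, and the grey band runs from the 5th to the 95th percentile of all tested genes (-2.06 to 1.72); bmp7a, gdf11, rgma and bmp1b are fitted values of probes that were not well above background in 1 group.

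Neither receptor gene passed. The gene acvrl1 encodes Alk1, a type I receptor of endothelial cells. Its probe, A_15_P104580, lay at 7.97 and 7.90 on the WT arrays and at 8.59 and 8.53 on the mutant arrays. The arrays of a group lay within 0.07 of each other, and the groups were 0.55 apart at their nearest arrays. The log2 difference was 0.62 ± 0.17 (SE; interval 0.15 to 1.09), a 1.54-fold difference with an unadjusted p of 0.0216 and a limma adjusted p of 0.0887. It passed with the unscaled deposited values (adjusted p = 0.0498), normexp (0.0270), the stricter signal minimum (0.0372) and the trended robust variance model (0.0429), over a range of 0.0270 to 0.341 among all alternatives. Those settings called 17.9%, 25.8%, 25.8% and 26.5% of all their tested genes. Of the 15 tested endothelial and endocardial markers, 10 were called higher and 0 lower, with a median log2 difference of 1.07. The other 5 had log2 differences from -0.94 to 0.51. The summed signal of all 15 was 37240 and 37707 on the WT arrays and 100052 and 114144 on the mutant arrays. Each marker was well above background in both groups. The higher mutant sums came in large part from aqp8a.1. It lay at 11.83 and 11.68 on the WT arrays and at 15.36 and 15.12 on the mutant arrays. The part of the 15 markers in the acvrl1 difference was not tested. In bulk RNA, more cells of a type and more RNA per cell cannot be told apart.

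The gene bmpr2a encodes a type II receptor. Its brighter probe, A_15_P177366, lay at 5.97 and 6.22 on the WT arrays and at 6.96 and 6.06 on the mutant arrays. The groups overlapped, since mutant replicate 2 lay between the WT arrays. The log2 difference was 0.42 ± 0.37 (SE; interval -0.61 to 1.45; limma adjusted p = 0.499), and it was -0.032 without mutant replicate 1. The second probe, A_15_P193876, lay at 4.31 and 4.46 on the WT arrays and at 6.09 and 4.81 on the mutant arrays. There too mutant replicate 1 was the high array, the mutant arrays lay 1.27 apart, and the log2 difference of 1.07 ± 0.48 (SE) did not pass (limma adjusted p = 0.218).

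The antagonist gene chrd encodes Chordin, which binds BMP ligands outside the cell and keeps them from their receptors. Its probe, A_15_P112209, lay at 3.26 and 3.35 on the WT arrays and at 3.80 and 3.96 on the mutant arrays. The groups were 0.45 apart at their nearest arrays, and the signals were close to the minimum for well above background, which ranged up to 3.20 on this scale. The raw median signals were 31 and 31 on the WT arrays and 35.5 and 37 on the mutant arrays. The log2 difference was 0.57 ± 0.18 (SE; interval 0.08 to 1.07), with an unadjusted p of 0.0324 and a limma adjusted p of 0.114. With normexp background correction it was -0.062.

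**Figure D3:**
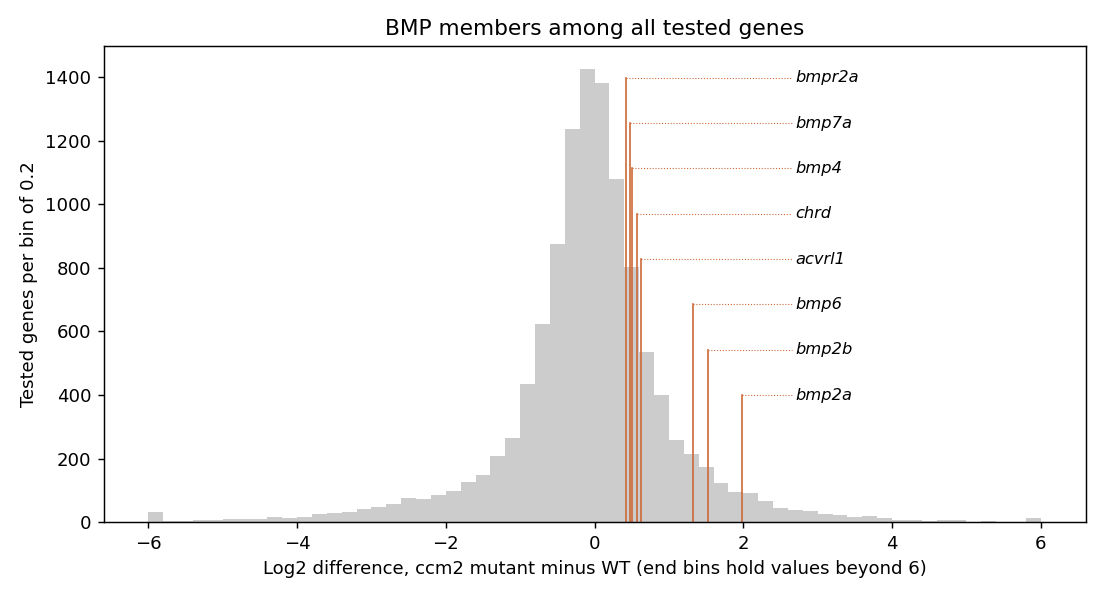
Distribution of the log2 difference, ccm2 mutant minus WT, over the 11536 tested genes (grey bars, bins of 0.2), with the 8 measured members marked by orange lines. The line heights serve only to separate the labels; bmp2a, bmp2b and bmp6 lie where 3.81%, 6.24% and 7.80% of tested genes had a larger rise, and bmpr2a where 25.6% had.

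Over the 8 measured members, 5 had an unadjusted p under 0.05, a level that 35.6% of all tested genes reached. The directions depend on the scaling to the 75th percentile, under which the median of all tested genes was -0.04. Median scaling moved that median to 0.12 and the unscaled deposited values moved it to 0.17. Both shift every estimate upward by the same amount, so no member estimate above 0 could turn under them. Quantile normalization does not shift all probes alike, and with it the estimates of all 8 members were above 0. The calls over all genes were 933 higher and 1041 lower with the 75th percentile, 1142 and 807 with median scaling, and 1291 and 769 unscaled.

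**Figure D4:**
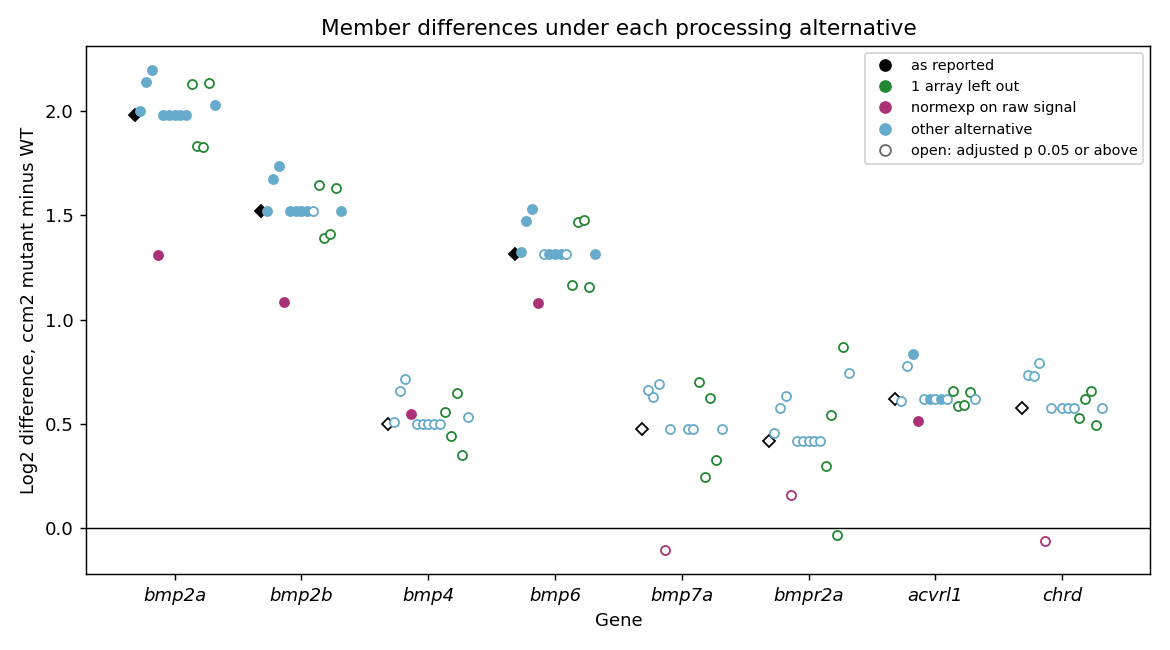
Log2 difference of each measured member, ccm2 mutant minus WT (vertical axis), as reported (black) and under each alternative: 1 array left out (green), normexp on the raw signals (purple) and the others (blue). Filled symbols have an adjusted p under 0.05; all green symbols are open, and values below 0 occur for bmp7a and chrd with normexp and for bmpr2a without mutant replicate 1.

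Other genes of the pathway moved in both directions. Of 60 tested genes in 4 lists, 7 rose, 6 fell and 47 did not pass. Their median log2 difference was 0.01. The calls made up 21.7% of these genes, beside 17.1% of all tested genes. They include gdf11, rgma and bmp1b, whose probes were not well above background in 1 group. The signal minimum needs 2 arrays, so the arrays of 1 group are enough to meet it. Without 1 array the number of calls was 5 (WT replicate 1), 1 (WT replicate 2), 0 (mutant replicate 1) and 0 (mutant replicate 2), where limma called 0 probes in all, with 8394 and 9050 probes at an unadjusted p under 0.05.

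Among the 8 other ligand genes tested, 1 rose, 1 fell and 6 did not pass (median -0.21). The gene bmp3, whose product opposes other BMPs in mammals, lay at 11.55 and 11.49 on the WT arrays and at 10.60 and 10.40 on the mutant arrays. It fell by 1.02 ± 0.18 (SE) on the log2 scale (limma adjusted p = 0.0388). Its other probes gave -1.14, which did not pass, and -1.48, which did. The brightest probe did not pass with median scaling (adjusted p = 0.0520) or the unscaled values (0.0541), nor without the signal minimum (0.0913). The gene gdf11, for a ligand related to myostatin, was called (limma adjusted p = 0.0203), but its WT signals were not well above background, and the mutant signal was at least 1.01-fold higher. With normexp its log2 difference was 0.0015 (adjusted p = 0.994), and it did not pass with the trended robust variance model (0.0508).

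Of the 16 other receptor and co-receptor genes tested, 0 rose, 1 fell and 15 did not pass (median -0.01). The one call was rgma, for a repulsive guidance molecule that acts as a BMP co-receptor. It lay at 3.48 and 3.91 on the WT arrays and was not well above background on the mutant arrays, so it was at least 1.96-fold lower there (limma adjusted p = 0.0428). That call was lost with quantile normalization (adjusted p = 0.0700), median scaling (0.0558), the unscaled values (0.0595) and no signal minimum (0.0634). With normexp the log2 difference was -0.45 (adjusted p = 0.0389), smaller than that bound, which thus holds for the processed signals only.

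Of the 20 other extracellular antagonists and modulators tested, 4 rose, 3 fell and 13 did not pass (median -0.06). The secreted BMP and Wnt modulator gene sostdc1a lay at 5.66 and 5.75 on the WT arrays and at 7.71 and 8.25 on the mutant arrays, a rise of 2.28 ± 0.26 (SE) on the log2 scale (limma adjusted p = 0.0171). The gene bmper, for a secreted BMP-binding protein of endothelium, rose by 0.93 ± 0.17 (SE; limma adjusted p = 0.0401) but did not pass without the signal minimum (adjusted p = 0.101). The follistatin-like gene fstl1a rose by 2.76 ± 0.31 (SE; limma adjusted p = 0.0170). In the other direction, nbl1, which encodes a DAN family BMP antagonist, lay at 6.07 and 6.12 on the WT arrays and at 3.46 and 3.06 on the mutant arrays, a fall with a log2 difference of -2.83 ± 0.22 (SE; limma adjusted p = 0.00987). Its raw median signals on the mutant arrays, 33 and 31, were below the median of all features, and with normexp the log2 difference was -1.01 (adjusted p = 0.00579). The gene bmp1b, for a protease of the Tolloid family that in vertebrates cleaves Chordin, was not well above background in mutants and was at least 3.69-fold lower there on the processed signals (limma adjusted p = 0.0170). With normexp its log2 difference was -0.59 (adjusted p = 0.0245), smaller than that bound. Normexp also gave smaller rises for sostdc1a (1.51) and fstl1a (2.14), both still called.

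The largest differences in that list were in a pair of genes for HtrA serine proteases, which in mammals bind TGF-beta family ligands. The gene htra1a lay at 10.79 and 10.72 on the WT arrays and at 4.11 and 3.34 on the mutant arrays, a log2 difference of -7.03 ± 0.32 (SE; limma adjusted p = 0.00726). Its raw median signals on the mutant arrays, 43 and 36, were close to the median of all features, 34.5 to 35, which limits the precision of that size. The gene htra1b lay at 5.91 and 5.97 on the WT arrays and at 10.44 and 11.40 on the mutant arrays, a log2 difference of 4.98 ± 0.38 (SE; limma adjusted p = 0.00978). The 2 genes thus moved in opposite directions. The second htra1b probe gave 4.29 and did not pass (limma adjusted p = 0.0781). With normexp the values were -4.94 for htra1a and 4.19 for htra1b, both still called.

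Among 17 tested genes for intracellular mediators and targets, 2 rose, 1 fell and 14 did not pass (median 0.11). The gene smad1, for a Smad that BMP receptors phosphorylate, lay at 11.98 and 12.05 on the WT arrays and at 13.04 and 13.43 on the mutant arrays, a rise of 1.22 ± 0.22 (SE; limma adjusted p = 0.0390). Its other probes gave 0.87 and 0.96 and did not pass, nor did the mean of its probes (adjusted p = 0.0745) or the brightest probe without the signal minimum (0.0790). The homeobox genes msx1a and msx1b moved in opposite directions, with log2 differences of -0.98 ± 0.19 (SE; limma adjusted p = 0.0468) and 2.91 ± 0.22 (SE; limma adjusted p = 0.00978). The msx1a call was lost with quantile normalization (adjusted p = 0.0520), median scaling (0.0655), the unscaled values (0.0748), the trended robust variance model (0.0555) and no signal minimum (0.106). With normexp msx1b was at 2.28 and still called.

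Markers of other cell types moved in the same comparison. Of 7 tested leukocyte markers, 7 were called higher, and their summed signal was 772 to 843 in WT and 4033 to 4116 in mutants. Of 10 red blood cell markers, 7 were called lower and 1 higher, with sums of 90698 to 103434 in WT and 11586 to 15211 in mutants. Of 5 cartilage and pharynx markers, 2 were called lower and 0 higher, with sums of 2963 to 2987 in WT and 167 to 177 in mutants. The WT sums came mostly from matn4, which lay at 11.28 and 11.35 on the WT arrays and at 6.45 and 6.44 on the mutant arrays. The 3 markers that were not called added little to them. Of 6 smooth muscle and outflow tract markers, 3 were called lower and 0 higher, with sums of 27686 to 29360 in WT and 13099 to 14512 in mutants. Most of that fall came from fbln5, which lay at 13.23 and 13.48 on the WT arrays and at 9.95 and 9.77 on the mutant arrays. The brightest marker, acta2, differed by -0.13 on the log2 scale and did not pass (limma adjusted p = 0.661), and 0 of the 6 had an estimate above 0. Of 7 tested markers from a list for neurons, retina and lens, 5 were called lower and 1 higher. No lens marker was among the 7. The sums were 873 to 1622 in WT and 527 to 661 in mutants, where most came from elavl4, the marker called higher. Of 7 epicardium and fibroblast markers, 1 was called higher and 1 lower, with a median log2 difference of -0.40. Only aldh1a2 had an estimate above 0 (1.35). The sums, 23184 to 24716 in WT and 24247 to 29731 in mutants, include its rise. Of 6 liver, yolk and gut markers, 1 was called higher and 0 lower, with sums of 5326 to 32722 in WT and 10869 to 11878 in mutants. By contrast, 0 of 9 cardiomyocyte markers were called in either direction by limma, 0 had an unadjusted p under 0.05, and their sums of 234317 to 259858 in WT and 206554 to 272110 in mutants overlapped. Which of these cells carried the RNA of bmp2a, bmp2b and bmp6 was not measured, and the part of these markers in the rises was not tested.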

How the data were processed

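Hearts of 72 hpf embryos gave 4 RNA samples, 2 per group, grouped by their titles. Per the labels' protocols, each sample's 200 ng of total RNA (integrity number above 8) went through 1 amplification and Cy3 labelling. The intensity columns the authors deposited hold processed signals of Agilent Feature Extraction 10.5.1.1, background-subtracted and detrended per the file headers, without flags or control spots. They were deposited with 3 significant digits and were taken as not scaled between arrays, since each column's median lay within 1.04% of the background-subtracted median in the array's header. All 43803 intensity values of the deposited series value table were identical to these, so it was not run as an alternative. Raw median intensity, deposited in a second table, served in 1 alternative, normexp background correction with an offset of 50. That offset exceeds the raw median of all features (34.5 to 35), so it shrinks differences of dim probes. Quality statistics (other values) came from the deposited header file.

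Spots of a probe were averaged on the log2 scale. Of the platform's symbols, 20133 were brought up to date by gene identifier, 409 by accession, and 519 stayed as given; 0 features had several symbols and 22742 none. Array design and reference annotation use different genome builds, so no coordinates are given. The 75th percentile of an array was subtracted from its log2 signals, and the mean of those percentiles, 7.49, was added back. Testing required at least 2 arrays with signal over the 40th percentile, which kept 26872 probes and 11536 genes; a gene was read from its brightest tested probe. Two-sided tests by limma 3.58.1 under R 4.3.3 had 2 residual and 1.97 prior degrees of freedom, and the code was tested on simulated data. The headers give a number of features well above background per array but not which, so the brightest features up to that number were taken to be so. Another identifier in the header blocks of the 2 mutant arrays is exchanged against the block names. Blocks were matched by name, and the column medians lay within 1.04% and 0.243% of the named block and 2.16% and 1.39% from the other. For a probe dimmer than that in a whole group, each dim array was set to the lowest such signal or to its own if higher, and the resulting fold is written "at least"; none is given under 1. The stricter signal minimum is the 60th percentile on all 4 arrays. Lists hold a gene once under its current symbol, and members were left out of the pathway lists. A gene of 2 lists, bambia, counts once in the total. Summed signals add the unlogged scaled signals of a list's tested genes.

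Named genes were all members with all their probes, each pathway gene that passed, ccm2 and at most 2 bright markers per list. The members and lists were chosen with earlier results of these data known. Figures used matplotlib 3.10.9.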

Additional observations from a re-analysis of the deposited data

How the results depend on the processing

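The median log2 difference over the measured members was 0.60, and it was 0.70 with quantile normalization, 0.75 with median scaling, 0.81 with the unscaled deposited values, 0.53 with normexp on raw signal, 0.97 with the stricter signal minimum, which tested only 6 members, 0.68 with the mean of a gene's probes, and 0.60 to 0.76 with 1 array left out. Of 8 members, 3 passed, against 5 with normexp (25.8% of all tested genes), 1 with replicate numbers as a block (the replicate block, which left bmp2a), 0 at a threshold of 0.01 and 0 whichever array was left out, where 4291 called probes fell to 1138 at most. Of the other pathway genes 13 passed, against 20 with normexp, 8 without the signal minimum, 7 with the replicate block, 4 at a threshold of 0.01, 20 at 0.1 and 0 to 5 with 1 array left out. Over all probes 4291 passed, against 2417 without the signal minimum, 1800 with the replicate block, 597 at 0.01, 7060 at 0.1 and 0 to 1138 with 1 array left out. The sign turned for bmp7a (-0.11) and chrd (-0.062) with normexp and for bmpr2a without mutant replicate 1 (range -0.032 to 0.87 with 1 array left out), and the cause was not tested. Lower counts with 1 array left out come with 1 residual degree of freedom, as does the replicate block. Deviations of same-numbered samples correlated at 0.070 over 26872 probes, and the labels say nothing of a shared source, so the numbers were not taken as pairs. The estimates of bmp2a, bmp2b, bmp4, bmp6 and acvrl1 kept their sign under all 16 alternatives, but many of these could not turn a sign. Another threshold, signal minimum or variance model and the replicate block leave an estimate as it is. Median scaling and the unscaled values only shift all estimates upward. Leaving out 1 array could not turn these 5 estimates either, since both mutant arrays lay above both WT arrays in each. Quantile normalization and normexp can turn a sign, and there too these 5 estimates stayed above 0. Probes near background, bmp7a and chrd, limit what can be said of those genes.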
